A study of Mus musculus with 38 samples.

Results

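Livers of calorie-restricted (CR) mice were compared with livers of fasted (F) mice at 6 h, across all measured genes. The comparison rests on 6 of the 38 RNA-seq libraries of the series, 3 from each diet, and its members were taken from the sample names alone. All mice were female, wild-type C57BL/6, and whole liver was used. Calorie restriction means a reduced daily ration, and the fasted mice had no food. At 6 h there were also 2 libraries of ad libitum (AL) mice, which ate freely, as a second point of reference. CR and F livers at 14 h (3 libraries each) and at 22 h (4 CR and 3 F libraries) were used to ask whether the difference at 6 h was also present later. The labels give neither the size of the ration nor the event from which the hours count. Nor do they state whether replicates were different animals, and p-values therefore measure the spread between samples. That spread was estimated over all 38 libraries and not over the compared ones alone. The labelled ages are 14 to 16 months for CR, 17 to 19 months for F and 11 to 12 months for AL, and they rise with sample order through the series. At 14 h they are 23 to 25 months for CR and 26 to 28 months for F, and at 22 h 32 to 35 months for CR and 36 to 38 months for F. Taken at face value, the ages mean that neither diet nor time can be told apart from age.

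The liver switches between storing and releasing fuel. After food, insulin and glucose favour glycolysis, glycogen storage and the synthesis of fatty acids through the transcription factors SREBP1c and ChREBP. Without food, fatty acids from adipose tissue reach the liver, where they are stored in lipid droplets, activate the nuclear receptor PPARA and are burned in mitochondria and peroxisomes, while gluconeogenesis and ketone bodies supply other organs. Cholesterol synthesis is controlled by SREBP2, which is held in the endoplasmic reticulum (ER) by INSIG proteins when sterols are plentiful.

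Levels are given in CPM, edgeR's measure of counts relative to the normalised library size, for each library in the order of its replicate number. Differences between diets are fold changes on the log2 scale, CR over F, with the standard error (SE) of the model after the ± sign. A gene was called when the p-value of edgeR's quasi-likelihood test, with Benjamini-Hochberg adjustment over all tested genes, was under 0.05. Of the 21954 genes in the table, 13786 had enough reads to be tested. Of these, 937 (6.8%) were called: 467 were higher in CR (3.39%) and 470 were lower in CR (3.41%). The libraries of CR and F did not overlap, with CR higher, for 13.7% of tested genes, and with CR lower for 14.1%. The median fold change over all tested genes was 0.0151. Leaving out CR_6h 1 gave 362 called genes, and leaving out F_6h 1, 2 or 3 gave 507, 455 or 568. In all, 283 genes were called in each of the 6 fits that left out 1 library. A fit of the 6 compared libraries only gave 880 called genes, of which 677 were among the 937.

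The 6 libraries held between 18708842 and 22084642 counts. The F libraries resembled each other, with correlations of 0.35 to 0.49 across genes in their deviations from the mean of all libraries. The CR libraries resembled each other less, with correlations of -0.07 to 0.32, and each was closest to a CR library of another group. For CR_6h 1 this was replicate 2 of the fed CR group (0.51), and skeletal muscle genes summed to 131 and 126 CPM in these libraries. The deviations went with transcript length at a Spearman's rho of 0.197, 0.359 and -0.067 in CR and 0.186 to 0.276 in F. The part of either in the closeness was not tested. Markers of hepatocytes summed to between 102000 and 168000 CPM in CR and between 99600 and 122000 CPM in F, and 0 of the 6 were called. Skeletal muscle genes summed to 131 CPM in CR_6h 1 and to at most 1.28 CPM in the other 5 libraries. Acta1, at 63.9, 0 and 0.0427 CPM in CR, and Myh1, at 24.5, 0 and 0 CPM in CR, were called higher, and their fold changes were -1.98 and -3.75 without this library. Pancreatic acinar genes summed to 29.7 CPM in CR_6h 3, against 1.03 to 8.72 CPM in the other 5 libraries. Their median fold change was 7.19, 0 of 5 were called at 6 h, and 3 were called lower in CR at 14 h. Red blood cell markers summed to between 1560 and 2980 CPM in CR and between 971 and 1550 CPM in F, with all 6 fold changes positive and 0 called. Cholangiocyte markers had 5 of 5 fold changes positive, at 24.5 to 46.6 CPM in CR and 15.5 to 28.9 CPM in F. Macrophage markers had 0 of 8 positive, at 152 to 282 CPM in CR and 261 to 356 CPM in F, and 0 of either list were called. The part of these cells in the results was not tested. Without the 4 libraries of the series whose muscle genes summed to over 10 CPM, CR_6h 1 among them and called the libraries with muscle RNA here, 402 genes were called in CR against F at 6 h. In whole tissue, fewer cells of a type and less RNA per cell cannot be told apart.

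**Figure D1:**
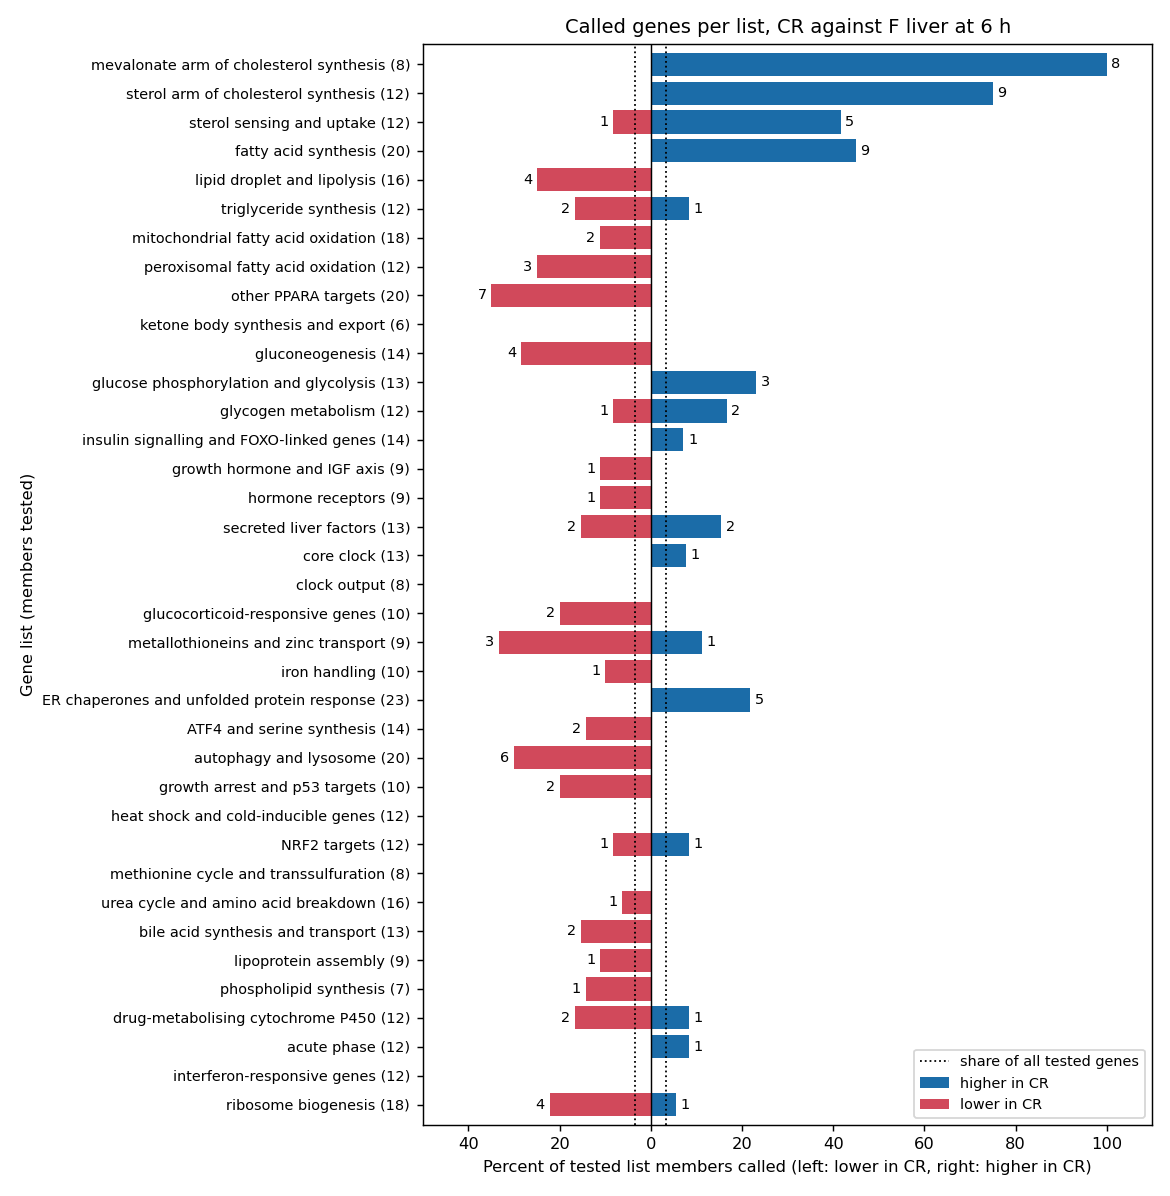
Share of the tested members of 37 gene lists that were called in CR against F liver at 6 h, with bars to the right for members higher in CR and to the left for members lower in CR. The number of members called stands at the end of each bar, the number tested is in parentheses, and dotted lines give the share over all tested genes (3.39% higher and 3.41% lower). The mevalonate arm of cholesterol synthesis reached 8 of 8 members higher.

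Cholesterol synthesis was the group with the largest share of members higher in CR livers. In the mevalonate arm, which builds the isoprene units, 8 of 8 members rose, with a median fold change of 2.53. Mvd, the decarboxylase of this arm, lies on chromosome 8, 122433601 to 122443422 on GRCm38. It was at 70.6, 53.9 and 54 CPM in CR livers, against 2.34, 2.35 and 2.43 CPM in F livers. The F libraries were alike and low, and the mean was 25.1 times higher in CR, a fold change of 4.65 ± 0.56 (adjusted p = 1.32e-05). Hmgcs1, the cytosolic HMG-CoA synthase, was at 1090, 1060 and 477 CPM in CR, against 178, 125 and 155 CPM in F (2.52 ± 0.48). CR_6h 3 was the lowest CR library for Hmgcs1, and it still lay above each F library. The other members rose by between 1.30 for Pmvk and 2.65 for Idi1. Pmvk lost its call without CR_6h 1 or without F_6h 1, and the other 7 kept it whichever 1 library was omitted.

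In the sterol arm, which makes squalene and turns it into cholesterol, 9 of 12 members rose, with a median of 1.63. Sqle, the squalene epoxidase and second control point of the pathway, was at 235, 189 and 118 CPM in CR livers, against 15.9, 15.8 and 15.1 CPM in F livers (3.53 ± 0.55). Lss, the cyclase that forms lanosterol, was at 225, 168 and 133 CPM in CR, against 23.4, 21.6 and 24.2 CPM in F (2.92 ± 0.36). The F libraries lay within 3 CPM of each other for both genes, and the CR libraries did not come near them. Fdft1 and Msmo1 rose by 2.72 ± 0.43 and 2.73 ± 0.59, and Cyp51 by 1.97 ± 0.42. The 3 members that did not pass were Hsd17b7 (0.49 ± 0.36), Tm7sf2 (0.05 ± 0.29) and Ebp (-0.06 ± 0.20). Called members later in the arm moved less: Sc5d rose by 1.32 ± 0.32, Nsdhl by 1.41 ± 0.41 and Dhcr7 by 1.65 ± 0.41. Each of these lost its call without CR_6h 1. Sc5d also lost it without F_6h 2, Dhcr7 without F_6h 1 or F_6h 2, and Nsdhl without any 1 F library.

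The promoters of the synthesis genes are shown because the members moved together and because SREBP2 is known to act beside the CCAAT-binding factor NF-Y. Windows of 300 bases, from 250 before to 50 after the RefSeq start, were read on GRCm38.p6 for 10605 tested genes, 15 of the 20 members of both arms among them. The box CCAAT, searched on both strands, stood in 14 of these 15 windows (93.3%), against 42.7% of all tested genes. The 14 included Hsd17b7, Tm7sf2 and Ebp, which were not called, while the called gene Acat2 lacked the box. A strict form of the sterol element, TCACNCCAC on either strand, stood in 1 of the 15, against 1.47% of all. A match is a description of the letters and not a site. In the first window, of Hmgcs1 (chr13:119690101-119690400, plus strand), capitals mark the sterol element. In the windows of Mvd (chr8:122443373-122443672, minus strand) and Lss (chr10:76531355-76531654, plus strand), capitals mark the CCAAT box or its reverse complement.
Hmgcs1: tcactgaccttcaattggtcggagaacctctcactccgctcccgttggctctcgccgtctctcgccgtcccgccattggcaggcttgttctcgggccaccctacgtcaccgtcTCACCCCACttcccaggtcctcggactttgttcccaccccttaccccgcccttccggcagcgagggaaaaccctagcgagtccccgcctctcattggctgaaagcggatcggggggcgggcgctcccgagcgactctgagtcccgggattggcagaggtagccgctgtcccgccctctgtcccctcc
Mvd: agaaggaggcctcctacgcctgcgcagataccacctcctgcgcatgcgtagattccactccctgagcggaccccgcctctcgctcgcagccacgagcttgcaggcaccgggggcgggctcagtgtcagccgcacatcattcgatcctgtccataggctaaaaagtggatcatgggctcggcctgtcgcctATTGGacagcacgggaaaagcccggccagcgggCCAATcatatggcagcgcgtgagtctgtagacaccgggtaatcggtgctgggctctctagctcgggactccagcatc
Lss: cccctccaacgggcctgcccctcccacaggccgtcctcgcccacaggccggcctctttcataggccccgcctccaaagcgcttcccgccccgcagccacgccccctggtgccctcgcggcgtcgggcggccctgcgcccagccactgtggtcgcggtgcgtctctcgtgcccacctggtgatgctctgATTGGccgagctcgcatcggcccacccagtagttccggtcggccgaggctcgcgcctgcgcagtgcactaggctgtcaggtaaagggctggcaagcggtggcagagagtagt

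The genes that sense sterols and take them up were divided. Of 12 members, 5 rose and 1 fell in CR livers. The INSIG genes, which encode the proteins that retain SREBP in the ER, went in opposite directions. Insig1, itself a target of SREBP, was at 663, 726 and 733 CPM in CR, against 135, 148 and 97.5 CPM in F (2.48 ± 0.39). Insig2, a liver isoform known to be repressed by insulin, was at 260, 230 and 207 CPM in CR, against 772, 915 and 561 CPM in F (-1.69 ± 0.35). Srebf2 rose by 1.37 ± 0.32, a call lost without CR_6h 1, and Stard4, a sterol carrier, rose by 1.57 ± 0.25. Abcg5 and Abcg8, the pair that exports sterols into bile, were lower in each CR library but did not pass (-0.94 ± 0.30, adjusted p = 0.05, and -1.16 ± 0.37, adjusted p = 0.0508). Abca1, the exporter to HDL, was at 0.07 ± 0.24.

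In fatty acid synthesis, 9 of 20 members rose and 0 fell, with a median of 1.04. Fasn, the fatty acid synthase (chromosome 11, 120805846 to 120824547), was at 1540, 962 and 1590 CPM in CR livers, against 123, 161 and 152 CPM in F livers. Each CR library stood above each F library, and the fold change was 3.23 ± 0.50. Acly, which makes cytosolic acetyl-CoA from citrate, was at 718, 747 and 666 CPM in CR, against 138, 170 and 159 CPM in F (2.19 ± 0.35). Acaca, the carboxylase that makes malonyl-CoA, rose by 1.46 ± 0.27, and Elovl6, which lengthens palmitate, by 1.89 ± 0.52. Mid1ip1, which promotes the polymerisation of the carboxylase, rose by 2.32 ± 0.43, and Pgd, a source of NADPH, by 1.17 ± 0.28. Srebf1, which encodes SREBP1c, was at 426, 554 and 585 CPM in CR, against 129, 110 and 128 CPM in F (2.09 ± 0.39). Pnpla3, whose product sits on lipid droplets, varied widely within CR at 16.7, 6.08 and 136 CPM, but stayed above 0.425, 1.51 and 0.686 CPM in F (5.91 ± 1.27). The desaturases were unlike: Scd2, which is low in liver, rose to 33.8, 31.4 and 7.04 CPM in CR, against 3.46, 3.81 and 4.27 CPM in F (2.64 ± 0.47). Scd1, the main liver form, was at 4990, 6270 and 12700 CPM in CR, against 2170, 6970 and 4080 CPM in F, and the groups overlapped (0.86 ± 0.63). Elovl6 lost its call without CR_6h 1 and without any 1 F library, and the other 8 kept it in each such fit.

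**Figure D2:**
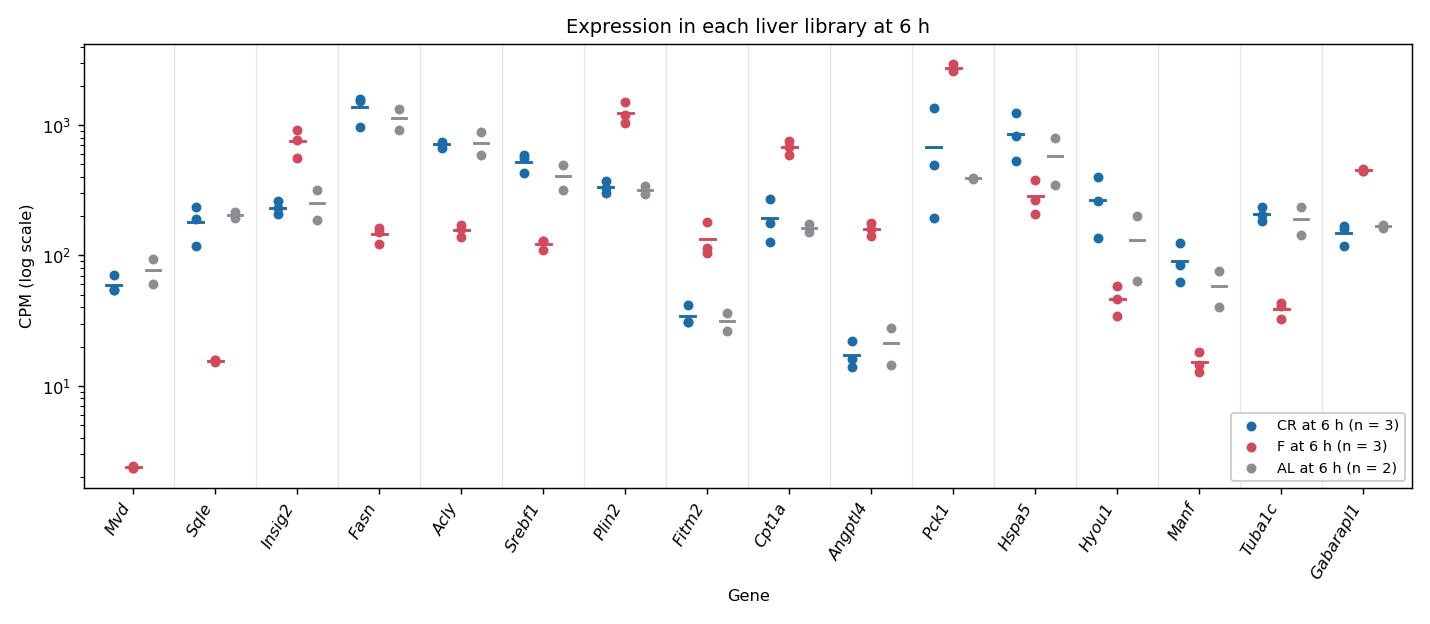
CPM on a log scale of 16 genes in each library at 6 h, with CR in blue (n = 3), F in red (n = 3) and AL in grey (n = 2). Points are libraries and bars are group means. Mvd, Sqle and Fasn were low in each F library, while Plin2, Fitm2, Cpt1a, Angptl4 and Gabarapl1 were high there. The 16 genes were picked from those called in CR against F, and CR and AL points lay close together for most of them.

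Of 16 lipid droplet and lipolysis genes tested, 4 fell in CR livers and 0 rose (median -0.62); Cidea had too few reads to be tested. Plin2, the main droplet coat protein of hepatocytes (chromosome 4, 86648386 to 86670060), was at 329, 369 and 303 CPM in CR, against 1190, 1500 and 1040 CPM in F (-1.90 ± 0.27). Fitm2, which helps droplets bud from the ER, was at 30.7, 41.4 and 30.8 CPM in CR, against 114, 181 and 104 CPM in F (-1.96 ± 0.30). These CR libraries differed little from each other, and the lowest F library held over 2 times the highest CR library. Cidec, which fuses droplets, was at 0.671, 0.147 and 0.469 CPM in CR, against 6.43, 11.3 and 5.22 CPM in F (-4.12 ± 1.01), a call lost without CR_6h 2. G0s2, an inhibitor of the lipase ATGL, fell by 2.54 ± 0.69 and lost its call without CR_6h 1, CR_6h 2 or F_6h 2. Pnpla2, which encodes ATGL, was at -1.22 ± 0.41 and the droplet protein gene Plin5 at -1.33 ± 0.53, and neither passed (adjusted p = 0.0681 and 0.131).

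The enzymes that attach the first fatty acid to glycerol-3-phosphate moved in opposite directions. Gpam, the mitochondrial isoform GPAT1 and a target of SREBP1c, was at 288, 260 and 219 CPM in CR, against 95.8, 104 and 71.7 CPM in F (1.5 ± 0.34). The ER isoforms fell: Agpat9, now named Gpat3, was at 10.6, 12.3 and 6.79 CPM in CR, against 42.2, 53.2 and 28.3 CPM in F (-2.06 ± 0.41). Gpat4 was at 109, 149 and 90.8 CPM in CR, against 294, 365 and 246 CPM in F (-1.38 ± 0.27). No library of one diet overlapped the other diet for these 3 genes, and all kept their calls whichever 1 library was omitted. Among all tested genes, 13.7% did not overlap with CR higher and 14.1% with CR lower. They were the 3 of 12 triglyceride synthesis genes that were called.

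Fold changes of fatty acid oxidation genes were mostly negative, and few of them passed. In mitochondria, 2 of 18 members fell (median -0.25, with 2 of 18 fold changes positive). Cpt1a, the carnitine palmitoyltransferase that controls entry into mitochondria (chromosome 19, 3322334 to 3385733), was at 178, 273 and 126 CPM in CR, against 680, 759 and 590 CPM in F (-1.81 ± 0.30). Eci2, an enoyl-CoA isomerase, fell by 1.32 ± 0.25. In peroxisomes, 3 of 12 members fell (median -0.46): Ehhadh, the bifunctional enzyme, by 1.56 ± 0.33, Pex11a, a factor of peroxisome division, by 1.54 ± 0.42, and Crot, a carnitine octanoyltransferase, by 1.42 ± 0.32. The peroxisomal count was 1 without the libraries with muscle RNA. Pex11a lost its call without any 1 CR library or without F_6h 2.

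Of 20 further PPARA targets, 7 fell and 0 rose, with a median of -1.04. Angptl4, an inhibitor of lipoprotein lipase, was at 16, 22.1 and 13.9 CPM in CR, against 160, 178 and 140 CPM in F (-3.20 ± 0.53). Slc22a5, a carnitine transporter, was at 22.5, 32.5 and 11.3 CPM in CR, against 82.7, 128 and 65.6 CPM in F (-2.06 ± 0.39). Ppara itself fell by 1.34 ± 0.34, Creb3l3, a transcription factor of fasting, by 1.15 ± 0.21, and Acsl1, which activates fatty acids, by 0.84 ± 0.24. Fgf21, a fasting hormone of the liver, was at 0.134, 0 and 2.01 CPM in CR, against 5.95, 7.98 and 5.91 CPM in F (-3.17 ± 0.83). Cyp4a32, a fatty acid hydroxylase gene, fell by 1.82 ± 0.39. Its better known relatives Cyp4a10 (-0.81 ± 0.65) and Cyp4a14 (-0.92 ± 0.69) did not pass, and reads may be shared among these paralogs. Pdk4, a brake on pyruvate oxidation, was at -1.25 ± 0.80. The count for the list fell to 4 without CR_6h 1 or without F_6h 2: Ppara, Fgf21 and Acsl1 lost their calls without either library, Fgf21 also without CR_6h 2, and Acsl1 also without CR_6h 3 or F_6h 1. None of 6 ketone body genes was called, against 6.8% of all tested genes, and so short a list could hold 0 by that share alone.

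A pair of lipid genes outside the lists, chosen after their values were seen, also fell. Slc27a1, a fatty acid transport protein gene better known from muscle and fat, was at 7.82, 7.31 and 4.44 CPM in CR, against 38.8, 34 and 33.5 CPM in F (-2.44 ± 0.34). Nceh1, a neutral cholesterol ester hydrolase gene, was at 19.4, 27.7 and 21.2 CPM in CR, against 76.4, 101 and 74.2 CPM in F (-1.88 ± 0.26). For both genes each CR library lay below each F library, as was so for 14.1% of all tested genes.

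In glucose metabolism, 4 of 14 gluconeogenesis genes fell in CR livers, and several of these calls were lost when 1 library was left out. Pck1, which makes phosphoenolpyruvate from oxaloacetate, was at 497, 1340 and 193 CPM in CR, against 2930, 2710 and 2600 CPM in F (-2.02 ± 0.63). G6pc, which releases free glucose, was at 243, 252 and 140 CPM in CR, against 595, 623 and 570 CPM in F (-1.49 ± 0.46). The F libraries were tightly grouped for both genes and the CR libraries were spread. Got1, an aspartate aminotransferase, fell by 2.17 ± 0.40 and Sds, a serine dehydratase, by 1.33 ± 0.36. Without 1 library the count lay between 1 and 3. Got1 kept its call in each such fit, G6pc lost it in each of the 6, Pck1 in each except that without CR_6h 2, and Sds without CR_6h 1, CR_6h 3, F_6h 1 or F_6h 2.

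Fold changes of the glucose phosphorylation and glycolysis genes were positive in 13 of 13 members, with a median of 0.52, and 3 passed. Pklr, the liver pyruvate kinase, rose by 1.56 ± 0.42 and Gpi1, glucose-6-phosphate isomerase, by 1.12 ± 0.32. The count lay between 0 and 2 without 1 library. Pklr lost its call without CR_6h 3 or any 1 F library, and Gpi1 without CR_6h 1, CR_6h 2 or any 1 F library. The subunits that bring protein phosphatase 1 to glycogen were again opposed. Ppp1r3b, the main liver subunit, was at 450, 495 and 573 CPM in CR, against 160, 116 and 122 CPM in F (1.93 ± 0.39). Ppp1r3g, a small subunit, was at 0.76, 1.23 and 0.0854 CPM in CR, against 8.88, 14.8 and 6.49 CPM in F (-3.88 ± 1.12), a call that held only without F_6h 3 among the fits that omitted 1 library. Of 12 glycogen genes, 2 rose and 1 fell.

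Of 23 genes of ER chaperones and the unfolded protein response, 5 rose and 0 fell in CR livers, with a wide spread among the CR libraries. Fold changes were positive in 22 of the 23, with a median of 0.68. Hspa5, the chaperone BiP (chromosome 2, 34771970 to 34777547), was at 1230, 819 and 528 CPM in CR, against 268, 382 and 209 CPM in F (1.58 ± 0.44). Hyou1, a nucleotide exchange factor for BiP, was at 398, 260 and 137 CPM in CR, against 46.3, 58.6 and 34.1 CPM in F (2.51 ± 0.53). Manf, a secreted ER stress protein, was at 125, 62.9 and 85.1 CPM in CR, against 14.4, 18.3 and 12.7 CPM in F (2.59 ± 0.48). CR_6h 1 was the highest library for each of these genes. Pdia4, a disulfide isomerase, rose by 1.31 ± 0.39 and Syvn1, the ubiquitin ligase of ER-associated degradation, by 1.48 ± 0.42. Hsp90b1 (0.69 ± 0.34), Calr (0.79 ± 0.31) and Creld2 (1.93 ± 0.72) did not pass. The count was 2 without CR_6h 1, and lay between 2 and 7 over the 6 fits that left out 1 library. Manf and Hyou1 kept their calls in each. Hspa5 lost it without CR_6h 1, F_6h 1 or F_6h 3, Syvn1 without CR_6h 1 or any 1 F library, and Pdia4 in each fit except that without CR_6h 3.

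The ER stress element, which is known to bind NF-Y and ATF6, consists of CCAAT, 9 bases of any kind and CCACG, and was searched on both strands of the same windows. It stood in 9 of the 20 members with a window (45%): Hspa5, Syvn1, Hsp90b1, Dnajc3, Pdia6, Creld2, Calr, Canx and Derl3. Of all tested genes, 0.179% held it, 19 in number. The CCAAT box is part of the element, and 85% of the ER members held a CCAAT box. Of the 9, only Hspa5 and Syvn1 were called, and the called member Pdia4 held a CCAAT box but no element. The called members Hyou1 and Manf had no window and were not searched. The windows of Hspa5 (chr2:34771840-34772139, plus strand) and Syvn1 (chr19:6046326-6046625, plus strand) are shown, with the element in capitals.
Hspa5: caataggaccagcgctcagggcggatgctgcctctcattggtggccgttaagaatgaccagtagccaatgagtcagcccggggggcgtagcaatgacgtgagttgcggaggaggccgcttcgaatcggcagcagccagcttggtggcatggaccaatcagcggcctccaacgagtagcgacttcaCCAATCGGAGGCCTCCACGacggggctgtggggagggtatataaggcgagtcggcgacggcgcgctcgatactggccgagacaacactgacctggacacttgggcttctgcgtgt
Syvn1: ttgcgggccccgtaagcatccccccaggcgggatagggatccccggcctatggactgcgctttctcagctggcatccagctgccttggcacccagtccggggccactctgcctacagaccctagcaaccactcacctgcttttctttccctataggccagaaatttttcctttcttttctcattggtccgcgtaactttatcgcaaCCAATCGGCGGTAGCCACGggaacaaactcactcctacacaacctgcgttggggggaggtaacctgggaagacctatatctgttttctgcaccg

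Of 12 tubulin genes tested, a family chosen after its values were seen, 8 were higher in CR and 0 lower, with a median of 1.12. Tuba1c was at 203, 183 and 235 CPM in CR, against 43, 41 and 32.8 CPM in F (2.41 ± 0.31). Tuba4a was at 340, 361 and 245 CPM in CR, against 78.2, 96.8 and 79.6 CPM in F (1.89 ± 0.31). Tubb2a rose by 1.80 ± 0.52, Tuba1b by 1.38 ± 0.25, Tubb4b by 1.22 ± 0.27, Tubb5 by 0.98 ± 0.20 and Tubb6 by 0.94 ± 0.28. The groups did not overlap for any of these 7 genes, which were picked as called. Among all tested genes, 13.7% did not overlap with CR higher. Tubulins are close paralogs, so reads may be shared among them. The count lay between 5 and 8 without 1 library. Tubb2a lost its call without CR_6h 1, CR_6h 3, F_6h 1 or F_6h 3, and Tubb6 and Tubg1 lost theirs in each fit except that without CR_6h 3.

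Genes of autophagy fell in 6 of 20 cases and rose in 0, with a median of -0.27. Gabarapl1, a member of the ATG8 family that coats autophagosomes (chromosome 6, 129533160 to 129542346), was at 167, 160 and 118 CPM in CR, against 445, 464 and 446 CPM in F (-1.6 ± 0.23). Map1lc3b, the related LC3B gene, fell by 0.95 ± 0.20, and Ctsl, a lysosomal protease, by 1.24 ± 0.26. Ulk1, the kinase that starts autophagy, fell by 1.37 ± 0.36, Wipi1 by 1.16 ± 0.30 and Bnip3l, a receptor for mitochondria, by 0.85 ± 0.23. Gabarapl1, Map1lc3b and Ctsl kept their calls whichever 1 library was omitted, and the count was as low as 3. Ulk1 and Wipi1 lost theirs without CR_6h 1, CR_6h 3 or F_6h 2, and Bnip3l without CR_6h 1, CR_6h 2, F_6h 1 or F_6h 2.

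Metallothioneins had the lowest fold changes of the genes named by rule. They are small proteins that bind zinc and copper and are induced by metals and glucocorticoids. Mt1 was at 8.63, 4.91 and 8.24 CPM in CR livers, against 902, 609 and 860 CPM in F livers (-6.76 ± 1.0, adjusted p = 8.46e-05). Mt2 was at 0.268, 0.442 and 1.71 CPM in CR, which came to 55 counts over the 3 libraries, against 511, 337 and 496 CPM in F (-9.09 ± 1.51). Its mean was 556 times higher in F than in CR. In AL livers Mt1 was at 16.2 and 90.9 CPM and Mt2 at 2.83 and 30.4 CPM, above each CR library and below each F library. The 2 genes are neighbours and similar in sequence, so reads may be shared. Slc30a1, the zinc exporter induced by the same factor MTF1, fell by 1.08 ± 0.25, a call lost without CR_6h 1. Slc39a10, a zinc importer, rose by 1.93 ± 0.44. These were the 4 called of 9 genes of metallothioneins and zinc transport. The core of the metal element, TGCNCNC on either strand, stood in 7 of 7 promoter windows of the list, and in 63.1% of all tested genes.

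The major urinary proteins, pheromone carriers secreted by the liver, were the gene family with the largest difference among the families examined. They were chosen after their values were seen. Of 20 Mup genes tested, 17 were lower in CR and 0 higher, with a median of -5.09. All 21 Mup genes in the table lie on chromosome 4, between 59956804 and 62150863, and are near copies, so that values of single members are uncertain and the sum is given. Summed over the family, CR libraries held 551, 884 and 3490 CPM, against 49900, 31300 and 48000 CPM in F libraries. The family made up 0.0558% to 0.4% of the counts of CR livers and 3.05% to 4.86% of those of F livers. AL livers lay between, at 6680 and 11600 CPM, and 0 of the 20 were called in either diet against AL. CR livers at 14 h held 618, 784 and 5140 CPM, against 38500, 38300 and 21200 CPM in F livers. At 22 h, CR livers held 455, 445, 4020 and 5830 CPM, against 22200, 7290 and 34100 CPM in F livers. The sums of the diets did not overlap at any of the 3 times. The number of Mup genes called lay between 12 and 17 without 1 library and was 12 without the libraries with muscle RNA.

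**Figure D3:**
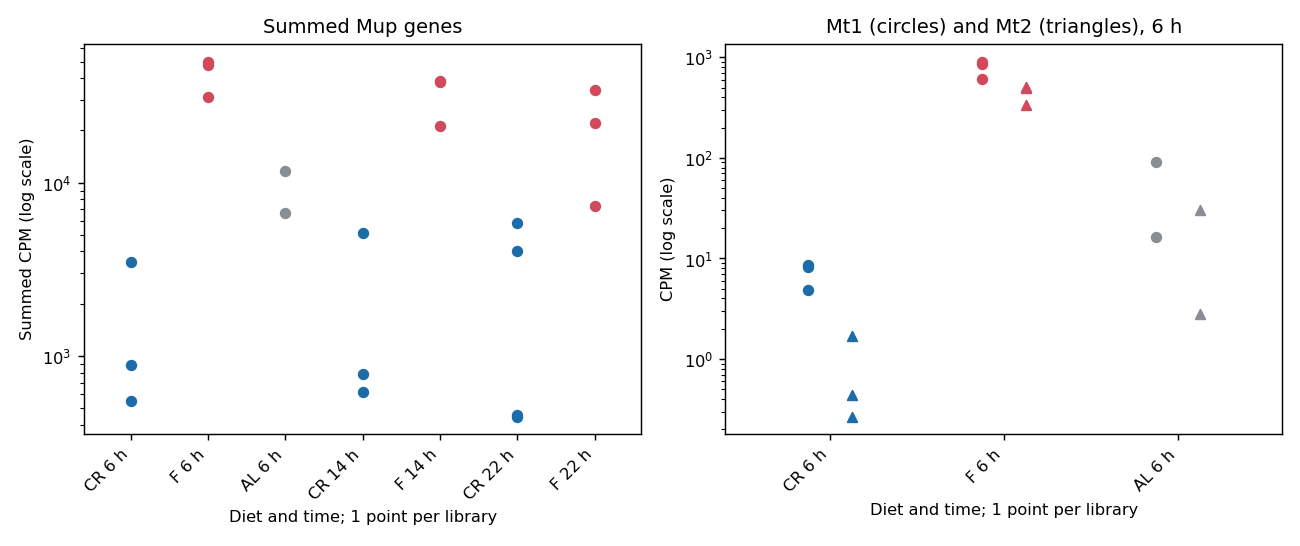
Left, summed CPM of the 21 Mup genes in each library at 6, 14 and 22 h; right, CPM of Mt1 (circles) and Mt2 (triangles) at 6 h; both axes are log scales, with CR in blue, F in red and AL in grey. The Mup sums of CR libraries lay between 445 and 5830 CPM and those of F libraries between 7290 and 49900 CPM. Mt1 and Mt2 were lowest in CR and highest in F, with AL between.

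Sulfotransferases and other genes with large fold changes are given next. Sult5a1, a sulfotransferase gene, was at 1.12, 1.18 and 2.09 CPM in CR, against 35, 16.1 and 29.8 CPM in F (-4.19 ± 0.72). Serpina1e, a serine protease inhibitor gene with close copies, was at 12.4, 11.9 and 172 CPM in CR, against 990, 1740 and 748 CPM in F (-4.15 ± 1.2), a call lost without CR_6h 1, CR_6h 2, F_6h 1 or F_6h 2. Sult1e1, the estrogen sulfotransferase, had the largest rise of the genes named by rule, which reached 5 CPM on average in CR or F and whose libraries did not overlap, at 6.24 ± 1.62. It was at 42.9, 5.64 and 0.299 CPM in CR, against 0.159, 0.261 and 0.211 CPM in F, so CR_6h 1 was far above the other CR libraries, and the call was lost without that library or any 1 F library. Socs2, a feedback inhibitor of growth hormone signalling, fell by 1.92 ± 0.53, lost without CR_6h 1, CR_6h 2, F_6h 2 or F_6h 3. It was 1 of 9 members of the growth hormone list that passed.

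Among hormone-related genes, Lepr, the leptin receptor, was at 8.81, 7.21 and 2.82 CPM in CR, against 53.1, 57.9 and 28.6 CPM in F (-2.89 ± 0.67), and was the 1 called of 9 receptor genes. Angptl8, a feeding-induced secreted protein, was at 53, 21.8 and 130 CPM in CR, against 8.19, 9.91 and 8.12 CPM in F (2.96 ± 0.73), a call lost without CR_6h 3, F_6h 1 or F_6h 3. Inhba, the activin A subunit, rose by 2.17 ± 0.46. Pik3r1, the regulatory subunit of PI3-kinase, rose by 0.95 ± 0.25, lost without CR_6h 1, F_6h 2 or F_6h 3, as the 1 called of 14 insulin and FOXO genes. Igfbp1, a FOXO1 target of that list, was lower in each CR library and did not pass (-2.0 ± 0.92, adjusted p = 0.203). Klf9 and Errfi1 fell by 1.61 ± 0.36 and 1.90 ± 0.44 among 10 glucocorticoid-responsive genes, and both calls were lost without CR_6h 1. Of 13 core clock genes, Per2 alone was called. It was at 24.2, 7.02 and 49.1 CPM in CR, against 2.45, 4.38 and 2.48 CPM in F (3.11 ± 0.65), and the CR libraries differed from each other by more than the F libraries. None of 8 clock output genes was called, against 6.8% of all tested genes, so a count of 0 does not set this list apart.

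Of 12 drug-metabolising cytochrome P450 genes, 1 rose and 2 fell, and the median was -0.33. Cyp26a1, which degrades retinoic acid, was at 75.2, 86.2 and 53.5 CPM in CR, against 13.3, 3.39 and 1.64 CPM in F (3.55 ± 0.52). Cyp2b10, a target of the receptor CAR, was at 21.9, 22.6 and 13.9 CPM in CR, against 156, 156 and 132 CPM in F (-2.93 ± 0.66). Cyp1a2 fell by 1.11 ± 0.32, a call that held only without CR_6h 1 among the fits that omitted 1 library. Cyp7b1, an oxysterol hydroxylase of the acidic bile acid pathway, was at 15, 16.8 and 15.9 CPM in CR, against 53.3, 80.6 and 46 CPM in F (-1.91 ± 0.31). Abcb4, the phospholipid exporter of bile, fell by 1.15 ± 0.33, lost without CR_6h 1, CR_6h 3, F_6h 1 or F_6h 2, and the other 11 of 13 bile acid genes did not pass.

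The largest rises and falls chosen by the rule included genes outside these groups. Slc41a2, a magnesium transporter gene, was at 65.2, 90.4 and 37.2 CPM in CR, against 2.71, 4.22 and 8.02 CPM in F (3.69 ± 0.53). Adamts7, a metalloprotease gene, rose by 3.08 ± 0.48. Aacs, which activates acetoacetate for lipid synthesis, was at 122, 75.6 and 163 CPM in CR, against 8.29, 24.9 and 7.38 CPM in F (3.15 ± 0.68). Chrna4, a nicotinic receptor subunit gene, rose by 3.86 ± 1.14, a call that held only without CR_6h 2 among the fits that omitted 1 library. Among the falls, Gpcpd1, a glycerophosphocholine phosphodiesterase gene, was at 14.5, 29.4 and 15.6 CPM in CR, against 344, 349 and 333 CPM in F (-4.11 ± 0.58). Elovl3, which makes very long saturated chains, fell by 3.23 ± 0.72, lost without CR_6h 1. Slc25a30, a mitochondrial carrier gene, fell by 3.70 ± 0.63, Krt23 by 3.50 ± 0.69, the imprinted gene Peg3 by 3.11 ± 0.55 and Zbed5 by 3.09 ± 0.50. Of 42 mitochondrial carrier genes tested, a family chosen after its values were seen, 10 were lower in CR and 2 higher. Over all tested genes, 3.41% were lower and 3.39% higher. Slc25a25, among the 10, was at 27.6, 28.7 and 81.5 CPM in CR, against 281, 215 and 314 CPM in F (-2.55 ± 0.43).

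The remaining lists held few called members. In ribosome biogenesis, Myc (-1.69 ± 0.45), Gnl3 (-1.17 ± 0.29), Rcl1 (-1.11 ± 0.24) and Wdr43 (-0.70 ± 0.20) fell and Bop1 (0.96 ± 0.28) rose among 18 genes. Rcl1 alone of these kept its call whichever 1 library was omitted. Myc lost it without CR_6h 2, CR_6h 3 or F_6h 1, Gnl3 without CR_6h 2 or F_6h 2, Wdr43 in each except that without F_6h 3 and Bop1 in each except that without CR_6h 3. Gstm3, a glutathione transferase, rose by 2.46 ± 0.58 and Hmox1, heme oxygenase, fell by 1.15 ± 0.29 among 12 NRF2 targets. Gstm3 lost its call without CR_6h 1 or F_6h 1, and Hmox1 without CR_6h 1 or F_6h 2. Among 12 heat shock and cold-inducible, 8 methionine cycle and 12 interferon-responsive genes, 0 were called, where 6.8% of all tested genes were. In lists this short, a count of 0 does not show that the genes were unchanged. The lists of iron handling, ATF4 targets, p53 targets, urea cycle, lipoprotein assembly, phospholipid synthesis and acute phase genes had 1 or 2 called members each. Apcs rose, and Id1, Sesn2, Ppp1r15a, Btg2, Ccng2, Oat, Apoa5 and Chkb fell, and each of these lost its call in at least 1 of the fits that omitted 1 library.

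Setting both diets against AL livers at 6 h asked which of them differed from free feeding. In CR against AL, 0 of 13786 genes (0.0%) were called, with 568 at an unadjusted p under 0.05 and 9 by DESeq2. In F against AL, 322 genes (2.34%) were called, 166 higher (1.2%) and 156 lower (1.13%) in F. Leaving out AL_6h 1 or 2 gave 70 or 116, and leaving out F_6h 1, 2 or 3 gave 143, 125 or 198. AL has only 2 libraries, both comparisons share them, and a count of 0 does not show that CR and AL livers were alike. For Mvd the difference from AL was -0.37 ± 0.52 in CR, against -5.02 ± 0.59 in F. For Fasn it was 0.29 ± 0.52 in CR and -2.94 ± 0.52 in F, and for Tuba1c 0.14 ± 0.33 in CR and -2.28 ± 0.33 in F. For Plin2 it was 0.06 ± 0.29 in CR and 1.96 ± 0.31 in F, and for Gabarapl1 -0.17 ± 0.25 in CR and 1.43 ± 0.26 in F. For these genes, picked from those called in CR against F, the CR libraries stood near AL and the F libraries apart. Other genes called in CR against F had the larger difference from AL in CR. Sult5a1 was at -3.75 ± 0.74 in CR and 0.45 ± 0.68 in F. Cyp7b1 was at -1.29 ± 0.33 in CR and 0.63 ± 0.34 in F, and Adamts7 at 2.08 ± 0.52 in CR and -1.0 ± 0.52 in F. None of these was called against AL in either diet.

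**Figure D4:**
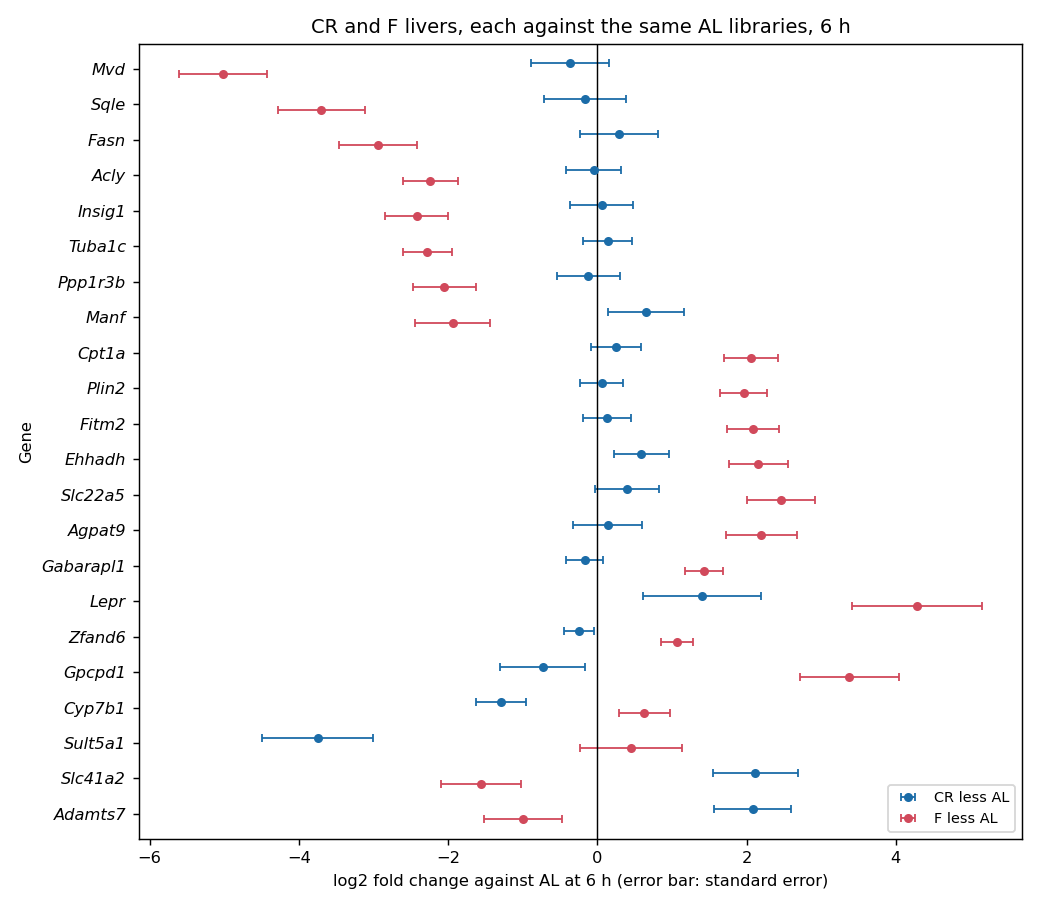
Log2 fold changes of 22 genes at 6 h, CR against AL (blue) and F against AL (red), with error bars of 1 standard error; both comparisons share the 2 AL libraries. The 22 genes were picked from those called in CR against F, so counts among them do not describe all genes. For 18 of the 22 genes the F point lay farther from 0 than the CR point. For Cyp7b1, Sult5a1, Slc41a2 and Adamts7 the CR point lay farther from 0.

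CR and F livers were then compared at 14 and 22 h, and the fold changes were tested against that at 6 h with an interaction term in the same model. At 14 h 2354 genes (17.1%) were called in CR against F, 9.1% higher and 7.97% lower. At 22 h it was 1302 genes (9.44%), 5.13% higher and 4.32% lower. The fold change at 6 h differed from that at 22 h for 554 genes (4.02%), 1.89% with a positive and 2.13% with a negative difference. Leaving out CR_6h 1 gave 252 genes, leaving out F_22h 1 or 2 gave 306 or 361, and leaving out F_6h 1, 2 or 3 gave 334, 305 or 336. It differed from that at 14 h for 125 genes (0.907%), 0.413% with a positive and 0.493% with a negative difference, a count that leaving out 1 library moved to between 1 and 303. Each of the 12 libraries moved it by over 1.5 times: without CR_6h 1, 2 and 3 it was 5, 8 and 303, without F_6h 1, 2 and 3 it was 4, 12 and 1, without CR_14h 1, 2 and 3 it was 21, 65 and 16, and without F_14h 1, 2 and 3 it was 4, 59 and 10. Fold changes in the difference between 6 and 14 h also went with transcript length across genes (Spearman's rho 0.315 over genes, which are not independent). After the length trend was removed, 51 genes were called. Other comparisons went with length too. The rho was -0.332 for CR against F at 14 h, -0.25 at 22 h and -0.046 at 6 h. It was 0.172 for the difference between 6 and 22 h, 0.204 for CR against AL and 0.192 for F against AL.

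**Figure D5:**
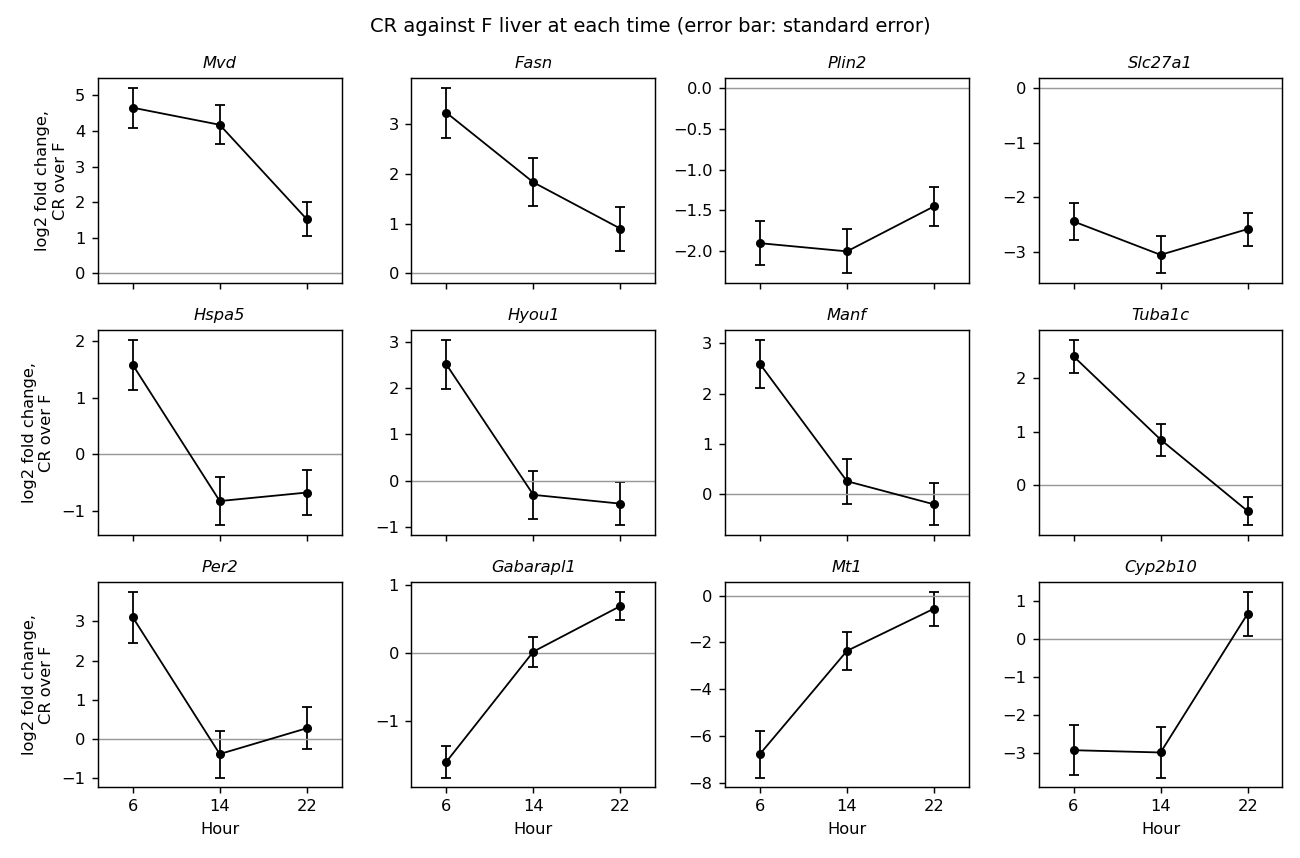
Log2 fold change of CR over F at 6, 14 and 22 h for 12 genes, with error bars of 1 standard error. Plin2 and Slc27a1 were below 0 at each time, Mvd and Fasn were above 0 with smaller values at 22 h, and Hspa5, Hyou1, Manf, Tuba1c, Per2, Gabarapl1 and Mt1 were farthest from 0 at 6 h.

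Of the 23 ER genes, 4 differed between 6 and 22 h, against 4.02% of all tested genes. The fold change of Hyou1 was 2.51 ± 0.53 at 6 h and -0.49 ± 0.47 at 22 h, a difference of 3.00 (adjusted p = 0.0128). Manf differed by 2.79, Hspa5 by 2.25 and Pdia4 by 1.83. Between 6 and 14 h Hspa5 alone of the 23 was called (2.41). Gabarapl1 was lower in CR at 6 h (-1.6 ± 0.23) but higher at 22 h (0.69 ± 0.21), a difference of -2.29. Tuba1c (2.90), Tubb4b (1.83) and Tuba4a (1.6) also had larger fold changes at 6 than at 22 h, as did Mvd (3.13), Lss (1.68), Fasn (2.33) and Gpam (2.26). Per2 differed from both later times, by 3.50 from 14 h and by 2.84 from 22 h. Of the 125 calls in the difference from 14 h, 1 was kept without F_6h 3 and 4 without CR_6h 1. From 22 h, 250 of the 554 calls were kept without CR_6h 1. Whether the genes named here or below kept their calls in either difference was not examined. Of the cholesterol synthesis genes, 0 of 20 were called in the difference between 6 and 14 h, against 0.907% of all tested genes. With so low a share, a count of 0 does not show that the fold changes were equal. At 14 h, 18 of 20 were again higher in CR, against 9.1% of all. The median of the mevalonate arm was 2.53 at 6 h and 3.19 at 14 h, and that of the sterol arm 1.63 and 2.76.

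Other genes had a difference between diets at a later time that was not called at 6 h. Gsta3, an abundant glutathione transferase, was at 0.15 ± 0.22 at 6 h and 1.99 at 14 h, a difference of -1.84. Cyp2c70, which makes muricholic acid in mice, was at -0.01 ± 0.34 at 6 h and 3.22 at 22 h, a difference of -3.23. Dsg1c, a desmosomal cadherin gene, differed by -4.57 from 14 h and by -3.64 from 22 h. Tk1, thymidine kinase, differed by -2.41 from 14 h and by -2.06 from 22 h, and Cntnap1 by 4.81 and 4.72. A pair of cytochrome P450 genes was instead called at 6 h. Cyp1a2 was lower in CR at 6 h (-1.11 ± 0.32) and higher at 22 h (1.88), a difference of -2.99. Cyp2b10 was lower in CR at 6 h (-2.93 ± 0.66) and at 0.67 at 22 h, where it was not called, a difference of -3.60.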

How the data were processed

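The series holds 38 RNA-seq libraries of mouse liver in 13 groups. Per the labels' protocols, RNA came from 30 mg of liver, libraries were non-directional and polyA-enriched, and paired reads of 150 bases were mapped to Ensembl protein-coding genes (GRCm38) with Bowtie, allowing 2 mismatches. The authors deposited expected counts from RSEM 1.2.3, and a signal table of TPM values rescaled with EBSeq against a possible batch effect; no batch is named in the sources used here. Without strand, reads of overlapping genes cannot be told apart, and near-identical paralogs share reads.

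Expected counts were rounded and tested with edgeR 4.0.16 in R 4.3.3 (quasi-likelihood test, TMM scaling, filterByExpr, 13 group terms over all libraries, Benjamini-Hochberg threshold 0.05), which kept 13786 of 21954 genes. Each SE was obtained from the fold change and the root of its F statistic. Library totals were 17131292 to 30152277. Counts for CR against F at 6 h were simulated from the model's own dispersions (13577 genes, 200 changed). The changed genes were drawn from those at 5 CPM or more. Of genes changed by log2 1, 66% were recovered, and of those changed by log2 2, 98%. Of the calls, 5.75% were false. These rates do not cover genes at lower levels or libraries that depart from the model. Genes named by rule were, in each direction, the 15 largest fold changes among called genes that reached 5 CPM on average in CR or F and whose libraries did not overlap, without Mup genes and unnamed models, then the 8 smallest p-values for each difference between times with 10 CPM as the minimum, and the list members. The members and lists were chosen with earlier results of these data known, and some are not reported here. Coordinates are from GENCODE vM21 (21856 genes matched, 99.6%) and promoter windows from RefSeq (GRCm38.p6). Alternatives used DESeq2 1.42.0, limma 3.58.1 on log2 of the rescaled TPM plus 1 or 0.1, a replicate block, fewer libraries and other filters. Those without muscle RNA libraries and with the length trend removed were chosen after seeing the data.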

Additional observations from a re-analysis of the deposited data

Results flagged for a closer look

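Each value in these paragraphs is the log2 fold change of CR over F at 6 h less that at a later time, called by the interaction term of edgeR's model. Between 6 and 14 h, 125 genes differed. Of the genes named, the difference was positive for Cntnap1 (4.81), Per2 (3.5), Hspa5 (2.41), Gpam (1.93), Cad (1.76), Celf2 (1.54) and Eme2 (1.46). It was negative for Dsg1c (-4.57), Socs2 (-3.31), Tk1 (-2.41), Gsta3 (-1.84), Cyp1a2 (-1.84), Gabarapl1 (-1.63), Rhod (-1.6), Rcl1 (-1.4), Tmem50a (-1.37) and Zfand6 (-1.06). The count of 125 was 1 without F_6h 3 and 303 without CR_6h 3.

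Between 6 and 22 h, 554 genes differed, a count that was 252 without CR_6h 1. In lipid and glucose metabolism the difference was positive for Mvd (3.13), Scd2 (2.44), Fasn (2.33), Gpam (2.26), Lss (1.68) and Pik3r1 (1.26). It was negative there for Ppp1r3g (-5.33), Angptl4 (-3.11), Sds (-2.14), Txnip (-1.99), Cyp7b1 (-1.8), Abcg5 (-1.44) and Eci2 (-1.17). Of the ER genes, 4 of 23 were called and positive, with Hyou1 at 3.0, Manf at 2.79, Hspa5 at 2.25 and Pdia4 at 1.83, as were the tubulins Tuba1c (2.9), Tubb4b (1.83) and Tuba4a (1.6). The metallothionein genes Mt2 and Mt1 were at -7.79 and -6.2. Of 42 mitochondrial carriers 7 were called, against 4.02% of all tested genes. Those named were Slc25a25 at -2.42, Slc25a47 at -2.18 and Slc25a22 at -1.2. The difference was also negative for the ATG8 genes Gabarapl1 (-2.29) and Map1lc3b (-0.94).

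Of other genes, the difference between 6 and 22 h was positive for Cntnap1 (4.72), Slc41a2 (4.05), Inhba (3.3), Per2 (2.84), Cad (2.17), Eme2 (2.17), Nek6 (1.57) and Celf2 (1.37). It was negative for Dsg1c (-3.64), Cyp2b10 (-3.6), Cyp2c70 (-3.23), Cyp1a2 (-2.99), Gpcpd1 (-2.73), Id1 (-2.72), Snrnp48 (-2.28), Tk1 (-2.06), Zfand6 (-1.65), Tmem50a (-1.56), Rcl1 (-1.46), Rhod (-1.35) and Gsta3 (-1.31). The 6 h libraries enter both differences, so the values for 14 and 22 h are not independent.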

How the results depend on the processing

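CR against F at 6 h gave 362 to 896 called genes without 1 library and 402 without the libraries with muscle RNA. With the compared libraries only it gave 880, of which 677 were also called in the main fit. Pck1, Fgf21, Acsl1, Id1 and Abcb4 were among the genes that lost their calls there. Of 139 called genes named, 79 were called in each fit that left out 1 library and 89 under each other setting; the exceptions in direction were Acta1 and Myh1, at -1.98 and -3.75 without CR_6h 1 and at -1.98 and -3.73 without the libraries with muscle RNA. Their ranges over all alternative settings, those without 1 library included, were -1.98 to 11.89 and -3.75 to 8.01. The difference between 6 and 14 h gave 1 to 303 without 1 library, 54 with no filter beyond 1 read, 326 by DESeq2, 80 by limma with no minimum mean, 10 without the libraries with muscle RNA and 51 with the length trend removed. The difference between 6 and 22 h gave 252 to 740 without 1 library, 881 by DESeq2, 247 with the compared libraries only and 317 without the libraries with muscle RNA. CR against AL gave 3 with no filter, 9 by DESeq2, 9 with the compared libraries only, and 4, 2 and 15 by limma with a pseudocount of 1, of 0.1 and with no minimum mean. F against AL gave 554 by DESeq2, 828 with the compared libraries only and 70 to 198 without 1 library. The causes were not tested. The main fit did not pair CR and F libraries of the same number, and the labels do not state whether they belong together. Their deviations from the group means had correlations of 0.037, -0.062 and 0.105 at 6 h, which cannot decide the question. With a replicate block, CR against F gave 1163 called genes, where the main fit gave 937. The block gave 3 for CR against AL and 581 for F against AL. For the differences from 14 and 22 h it gave 178 and 598. With 3 libraries a group, and 2 for AL, smaller changes may be missed.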

Other observations

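Mitochondrial carriers of the Slc25 family, chosen after their values were seen, were divided unevenly at 6 h. Of 42 tested, 10 were lower in CR than in F livers and 2, Slc25a37 and Slc25a48, were higher, with a median of -0.18. Over all tested genes, 3.41% were lower and 3.39% higher, and 2 of 42 is close to the latter share. Of the 42, 7 differed between 6 and 22 h, against 4.02% of all tested genes. Cytosolic sulfotransferases, also chosen after their values were seen, were divided too. Of 15 tested, Sult1e1, Sult2a3 and Sult2a5 were higher in CR and Sult5a1 was lower, to be read against the same shares of all genes.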
